A study of Mus musculus with 18 samples.

Results

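The guide miRNAs miR-99a, miR-99b, miR-100, miR-125a-5p and miR-125b-5p were taken by name from a table of 583 mature miRNA rows, as the rows that carry these miRNA numbers and no star. The numbers also match miR-125a-3p and miR-125b-3p, which are the other arms of the hairpins and are described as such, so the guides are 5 of the 583 rows. The samples are mammary tumours of F1 mice from 18 AKXD recombinant inbred strains, each crossed to FVB/N-TgN(MMTV-PyVT)634Mul mice. AKXD strains derive from AKR/J and DBA/2J, and the transgene, which all 18 groups carry, is middle T of polyoma virus, an oncogene, driven by the MMTV promoter, which is active in mammary epithelium. Total RNA of a strain's tumours was pooled and sequenced as 1 small RNA library, so n = 1 per strain and a contrast of single strains cannot be checked against replicates. The labels used here state neither the ages of the mice nor how many tumours made up a pool. The question that the panel allows is how far these guides differ among strains and which miRNAs differ with them.

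Libraries held 4358311 (strain 7) to 14946857 (strain 27) miRNA reads. Levels are given as CPM, the usual unit of reads relative to library size, after scaling by a factor per library. Rows averaging 10 CPM or more were tested, which were 281. The first principal component of these (27.6% of the variance) set strains 10, 13, 14 and 20 at its low end. In strain 28, let-7c was at 8644 CPM, against 112267 to 290902 CPM in the other strains. Of the miRNAs of luminal epithelium that mark the tissue, miR-200c was at 17036 ± 4845 CPM and miR-141 at 7942 ± 2346 CPM (SD, n = 18). Pools hold tumour and stroma together, so a lower share of a cell type and less of a miRNA per cell cannot be told apart.

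miR-99 and miR-100 descend from a shared ancient miRNA and miR-125 from lin-4, which, like let-7, was found in the worm as a regulator of developmental timing. In mammals their genes lie in clusters with a let-7 gene between them, and a primary transcript can be cut by Drosha and Dicer into one miRNA of each kind. A miRNA finds its targets mainly through its seed, bases 2 to 8 from the 5′ end. miR-99 and miR-100 are known to repress mTOR and other growth genes, and miR-125 has been studied as a repressor of ERBB2 and ERBB3 in breast cancer cells and as a regulator of blood stem cells.

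The 5 mature guides fall into a pair of seed groups, shown here because members of a group differ in only a few bases outside the seed. The sequences are those of RefSeq (GRCm38.p6), 5′ to 3′, with the seed in capitals.
miR-99a-5p: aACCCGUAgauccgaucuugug
miR-100-5p: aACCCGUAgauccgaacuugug
miR-99b-5p: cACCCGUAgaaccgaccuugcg
miR-125a-5p: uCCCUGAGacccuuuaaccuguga
miR-125b-5p: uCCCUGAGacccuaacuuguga
let-7e-5p: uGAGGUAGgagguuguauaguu
Counting positions from 1 at the 5′ end, miR-99a and miR-100 differ by the single substitution U16A. miR-99b differs from miR-99a by 4 substitutions, A1C, U11A, U16C and U21C. miR-125a-5p (24 bases) and miR-125b-5p (22 bases) share their first 13 bases. Among 1679 mature mouse miRNAs in the RefSeq table, 3 have the seed ACCCGUA, all of them guides described here. The seed CCCUGAG is found in 5, among them miR-351, which was listed in the deposited table too. Because of the single base between miR-99a and miR-100, reads may have been assigned to either, and no source used here gives the authors' rule for assigning them.

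The genes lie in 3 clusters. Coordinates are those of GRCm38, all on the plus strand, while the authors' build is mm9 and their table has none. On chromosome 17, Mir99b (17830188 to 17830257), Mirlet7e (17830352 to 17830444) and Mir125a (17830812 to 17830879) span 692 bases. The first pair lies in an intron of the protein-coding gene Spaca6, and Mir125a overlaps an annotated exon of it. On chromosome 16, Mir99a (77598936 to 77599000), Mirlet7c-1 (77599657 to 77599750) and Mir125b-2 (77646273 to 77646343) lie in introns of the noncoding host gene Mir99ahg and span 47408 bases. On chromosome 9, Mir100 (41531425 to 41531504), Mirlet7a-2 (41536716 to 41536811) and Mir125b-1 (41581926 to 41582002) span 50578 bases in introns of the noncoding genes 3110039I08Rik and Gm49317. Mir125b-1 also overlaps an annotated exon of Gm28119, a gene of the sense intronic type. miR-125b-5p has the same mature sequence from Mir125b-1 and Mir125b-2, so its level sums a pair of loci. let-7a and let-7c likewise have further genes outside these clusters, on chromosomes 13 and 15, whereas miR-99a, miR-99b, miR-100, let-7e and miR-125a have 1 gene each in the RefSeq table.

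All 5 guides were of middle to high abundance in the tumours, and together they took 0.543% to 1.49% of the miRNA reads of a library (median 0.768%). miR-99b, from the chromosome 17 cluster, was the most abundant, at 3688 ± 1117 CPM (SD, n = 18), which ranked it 37th of the distinct rows. miR-99a averaged 1280.1 ± 364 CPM, miR-125a-5p 1179 ± 382 CPM, miR-100 1016 ± 277 CPM and miR-125b-5p 985 ± 281 CPM. In this order, neighbouring means among these 4 differed by less than the SD over strains. miR-99b exceeded miR-99a and miR-125a-5p in all 18 libraries.

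miR-99b was lowest in strain 16, at 1899.8 CPM, had a median of 3484 CPM and was highest in strain 18, at 6052 CPM. Strain 27 was next to the lowest, at 2307 CPM, and strain 21 next to the highest, at 5502 CPM. For miR-99a the lowest strain was again strain 16, at 750.5 CPM, followed by strain 22 at 818 CPM, with a median of 1332 CPM. The highest miR-99a was that of strain 27, at 1995 CPM, which had the second lowest miR-99b.
miR-100 had 452 CPM in strain 16 and 599 CPM in strain 22, a median of 1008 CPM, and 1562 CPM in strain 9 as its highest value. Its range of 3.45-fold was the widest of the 5 guides, and the narrowest was the 2.58-fold of miR-125b-5p. Strains 16 and 22 were the lowest for both miR-99a and miR-100.
miR-125a-5p was lowest in strains 10 (734 CPM) and 22 (738 CPM), had a median of 1206 CPM, and its highest values in strains 9 (2018 CPM) and 7 (1707 CPM). miR-125b-5p had its lowest values in strains 22 (633 CPM) and 16 (700.2 CPM), a median of 918 CPM, and its highest in strains 11 (1637 CPM) and 7 (1539 CPM). On these scaled levels strain 22 was thus among the 4 lowest strains for all 5 guides, and strain 9 among the 3 highest. As a plain percentage of the miRNA reads of a library, the order of strains differed. Strain 28 was then highest for miR-99a (0.240%), miR-99b (0.704%) and miR-125b-5p (0.159%), and strain 10 was lowest for miR-99a (0.0678%). For miR-99b, strain 22 (0.353%) was then above the median (0.308%).

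**Figure D1:**
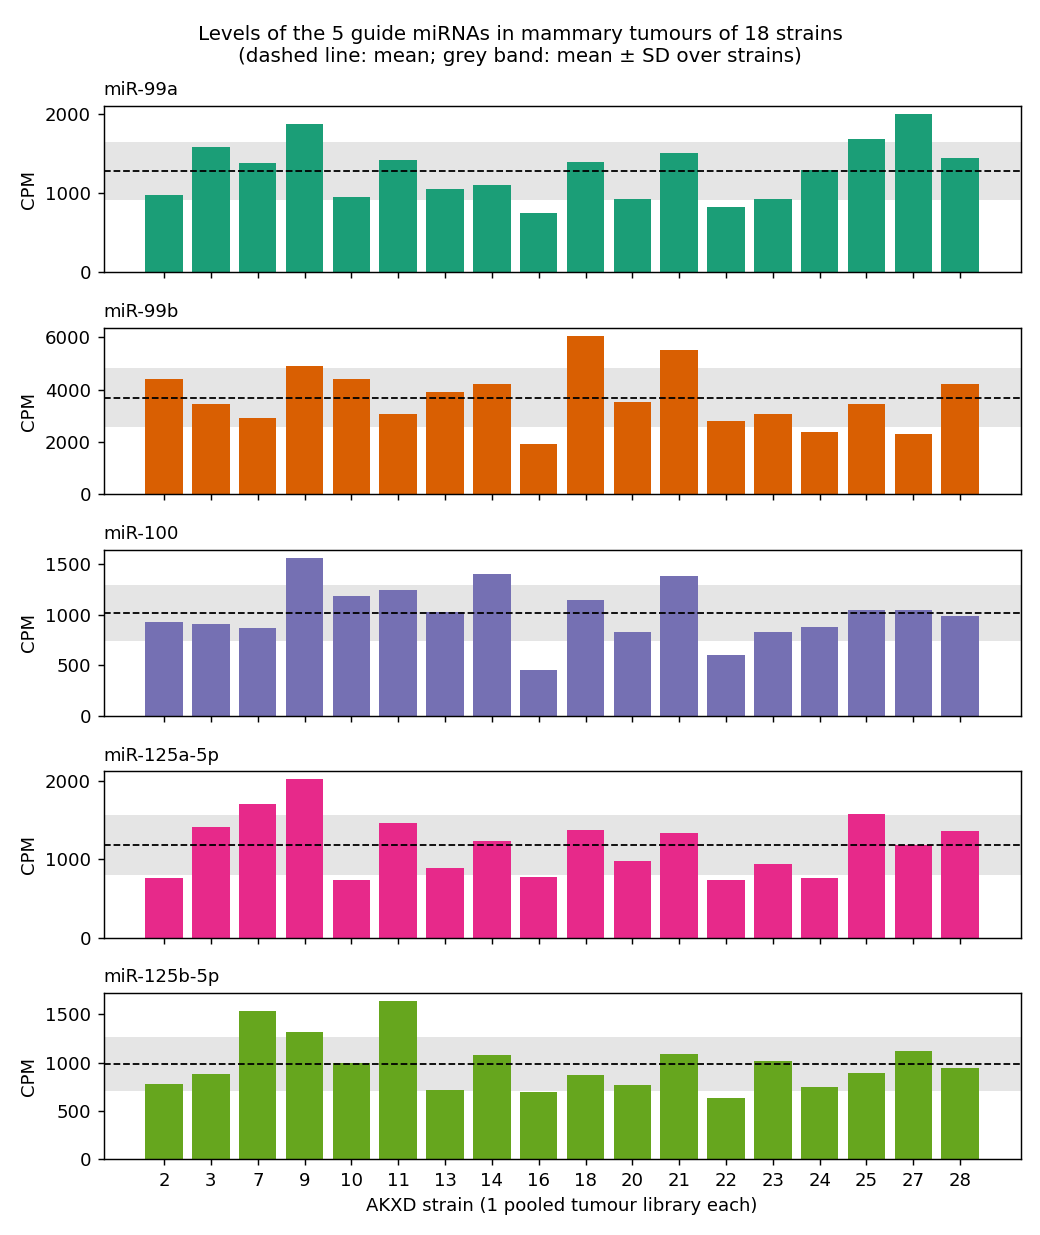
Level in CPM of each of the 5 guides (rows of panels, linear axis from 0) in the pooled tumour library of each of 18 strains (bars). The dashed line is the mean and the grey band 1 SD over strains on either side; strains 16 and 22 are low and strain 9 is high in most panels, while miR-99b alone is highest in strain 18.

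Read counting contributed little to this spread. The guides had between 3539 and 70772 reads in a library, which gives an SD from counting of 0.01 to 0.02 log2, against an SD over strains of 0.42 log2 for miR-99a, 0.45 for miR-99b, 0.43 for miR-100, 0.47 for miR-125a-5p and 0.38 for miR-125b-5p. Even so, strains next to each other in the order of levels were often not told apart by their counts: of 17 neighbouring pairs, the exact 95% binomial intervals overlapped in 6 for miR-99a, 5 for miR-99b, 7 for miR-100, 9 for miR-125a-5p and 8 for miR-125b-5p. Such intervals reflect counting error alone, treating PCR copies as separate molecules and leaving out the rounding of the deposited values. The median SD of the 281 tested miRNAs was 0.45 log2, and 37.4% (miR-125b-5p) to 53.7% (miR-125a-5p) of them had a smaller SD than the guide. In spread over strains the guides were therefore ordinary among the tested miRNAs.

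Shares within a seed group do not depend on how libraries are scaled. miR-99b supplied the most reads of the miR-99 and miR-100 group in all 18 libraries, with a median of 63.1% of the group. Its share was 70.5% in strain 18 (exact 95% interval 70.2% to 70.8%) and 43.1% in strain 27 (42.8% to 43.5%). The share of miR-99a was highest in strain 27, at 37.3%, and lowest in strain 10, at 14.5%. miR-100 took 13.3% in strain 18 to 21.7% in strain 11. In the miR-125 group miR-125a-5p supplied more reads than miR-125b-5p in 14 of 18 libraries. Its share was highest in strain 25 at 64.0% (63.5% to 64.5%) and lowest in strain 10 at 42.4% (41.6% to 43.2%).

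**Figure D2:**
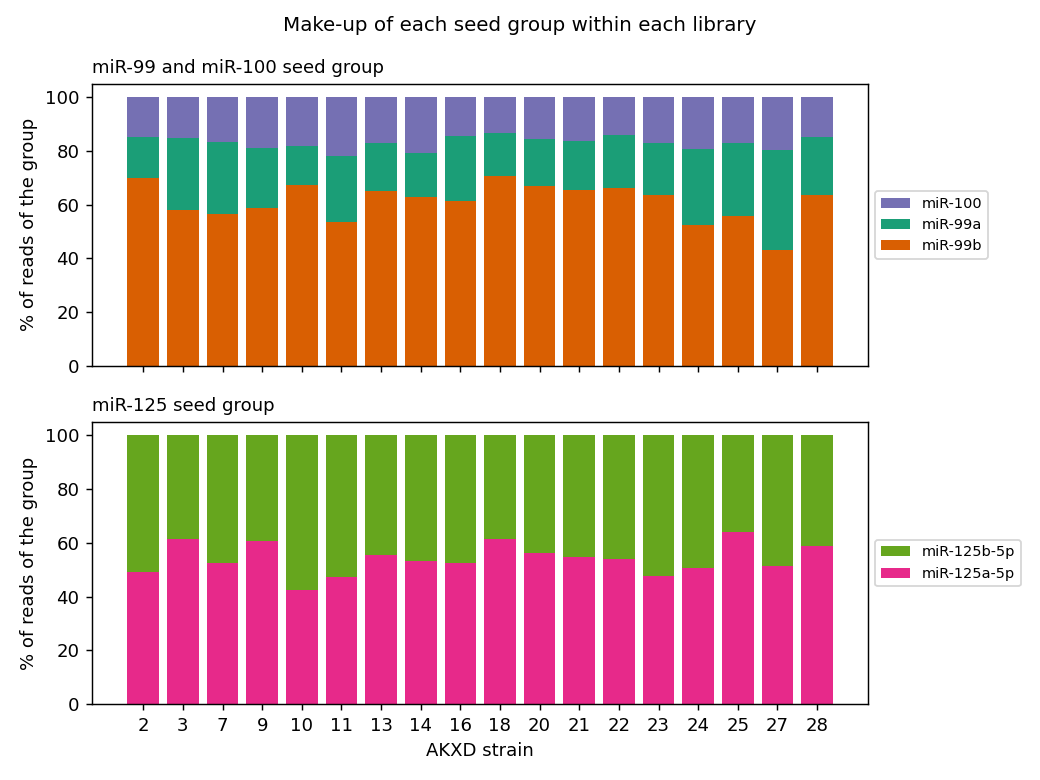
Percentage of the reads of each seed group taken by each guide (stacked bars summing to 100% in each library) in 18 strains. miR-99b is the largest part of its group in each library, from 43.1% in strain 27 to 70.5% in strain 18, and miR-125a-5p holds 42.4% to 64.0% of its group.

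To see which miRNAs varied with the guides, each guide was set against the other 280 tested miRNAs over the 18 strains with Spearman's rho, a two-sided permutation test of 100000 resamples and Benjamini-Hochberg adjustment over those 280. Of these, 15 passed an adjusted p of 0.05 with miR-99a (5.36%), 12 with a positive rho (4.29%) and 3 with a negative one (1.07%). With miR-125a-5p 2 passed (0.714%), 1 in each direction (0.357% each). At an unadjusted p under 0.05 there were 68 with miR-99a and 39 with miR-125a-5p. Leaving out single strains moved these counts to between 1 (without strain 28) and 28 (without strain 16) for miR-99a, and to between 0 (without strain 9, for one) and 11 (without strain 16) for miR-125a-5p. None passed with miR-99b (0%; 34 at an unadjusted p under 0.05, and 1 by Pearson's r), with miR-100 (0%; 22 unadjusted, 3 by Pearson's r) or with miR-125b-5p (0%; 18 unadjusted, 0 by Pearson's r). In all, 1400 relations were computed. The points of a correlation are libraries that differ in depth and in scaling factor as well as in strain.

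Within the family, only the relation of miR-99a with miR-125a-5p passed, a pair with different seeds from different chromosomes. Its rho was 0.732 (permutation p = 0.00094, adjusted p = 0.0263), and Pearson's r was 0.798 (permutation p = 0.00018), or 0.744 without strains 16 and 22, the farthest from the median of miR-99a. Adjusted in the family of miR-125a-5p, the same relation had an adjusted permutation p of 0.0651. The call held in 25 of 29 alternatives. Among those in which it was lost were the ones without strain 9 (rho 0.703, adjusted permutation p = 0.0821), without strain 28 (rho 0.752, adjusted permutation p = 0.0515) and without strains 10, 13, 14 and 20 (rho 0.684, adjusted permutation p = 0.132). These values come from scaling the remaining libraries anew; with the scaling of all 18 libraries kept, rho without strains 10, 13, 14 and 20 was 0.648.

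Guides whose genes share a cluster did not pass. miR-99b and miR-125a-5p, whose hairpins lie within the 692 bases on chromosome 17, had a rho of 0.170 (permutation p = 0.497, adjusted p = 0.793) and a Pearson's r of 0.335 (permutation p = 0.173; 0.186 without strains 16 and 18). In the libraries themselves there were between 1.71 (strain 7) and 6.02 (strain 10) reads of miR-99b for each read of miR-125a-5p, a median of 3.18. Strain 10 had the lowest miR-125a-5p of the panel beside 4421 CPM of miR-99b, and strain 18, where miR-99b was highest, had a ratio of 4.41.
miR-100 with miR-125b-5p, from chromosome 9, had a rho of 0.624 (permutation p = 0.00652, adjusted p = 0.240) and an r of 0.596 (permutation p = 0.0088; 0.431 without strains 16 and 22). miR-99a with miR-125b-5p, from chromosome 16, had a rho of 0.598 (permutation p = 0.0106, adjusted p = 0.0959) and an r of 0.565 (permutation p = 0.0148; 0.407 without those strains). Both pairs passed only where libraries were scaled by their totals alone (rho 0.686 and 0.804). The log2 ratio of miR-100 to miR-125b-5p had an SD of 0.37 over strains, that of miR-99a to miR-125b-5p 0.37, and that of miR-99b to miR-125a-5p 0.53. The first pair of these ratios varied less than either guide in it, and the ratio of the chromosome 17 guides varied more than either. For miR-99a to miR-125b-5p the gap was small, 0.375 against 0.384 for miR-125b-5p. Low SDs were not confined to shared clusters. Of the ratios computed across clusters, the SD was 0.29 for miR-99a to miR-125a-5p and 0.33 for miR-125a-5p to miR-125b-5p. It was 0.36 for miR-99a to miR-100 and 0.54 for miR-99b to miR-99a.

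Guides that share a seed but not a cluster had rho values in the same range. For miR-99a with miR-100, which differ by a single base, rho was 0.620 (permutation p = 0.00701, adjusted p = 0.0783) and r was 0.632 (permutation p = 0.00389), but r was 0.368 without strains 16 and 22, in which both are lowest. miR-99b with miR-100 had a rho of 0.631 (permutation p = 0.00616, adjusted p = 0.123; r = 0.708, permutation p = 0.0011, and 0.602 without strains 16 and 18). For miR-125a-5p with miR-125b-5p it was 0.635 (permutation p = 0.00571, adjusted p = 0.122; r = 0.711, permutation p = 0.00122, and 0.741 without strains 9 and 10). By contrast miR-99a with miR-99b had a rho of 0.195 (permutation p = 0.437, adjusted p = 0.655; r = 0.226, and -0.103 without strains 16 and 22). Over the 10 pairs of guides, all rho were above 0: the 3 pairs that share a cluster lay between 0.170 and 0.624, the 4 that share only a seed between 0.195 and 0.635, and the 3 that share neither between 0.176 and 0.732. Whether these kinds of pairs differ was not tested.

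**Figure D3:**
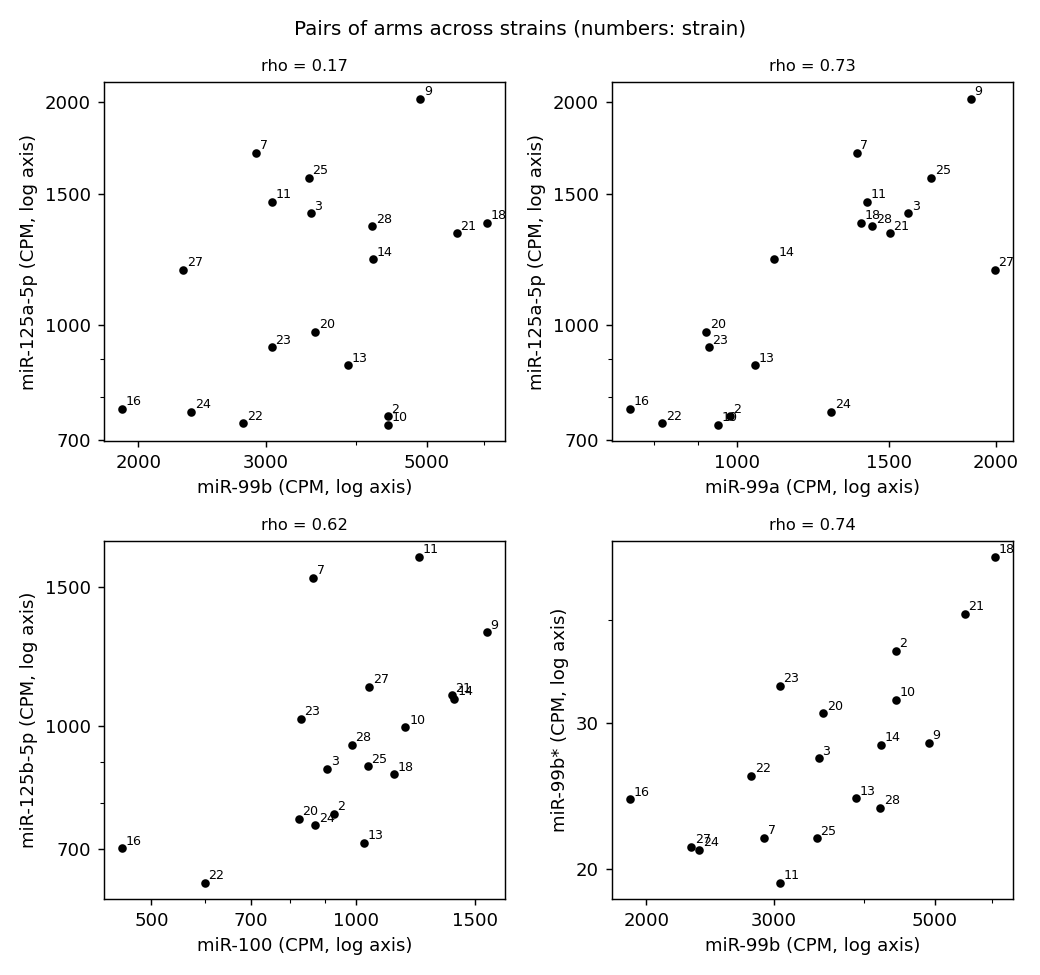
Level of a miRNA (y axis, CPM, log axis) against that of another (x axis, CPM, log axis) for 4 pairs, with 1 point per strain labelled by strain number. miR-99b and miR-125a-5p of 1 cluster scatter widely (rho 0.17), and rho is higher for miR-99a with miR-125a-5p (0.73), miR-100 with miR-125b-5p (0.62) and miR-99b with its other arm miR-99b* (0.74).

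The let-7 miRNAs of the clusters, which are best known for promoting differentiation, were set beside the guides. let-7e, from the hairpin between Mir99b and Mir125a, averaged 1265 ± 301 CPM (SD, n = 18), with 796 CPM in strain 21, a median of 1209 CPM and 1942 CPM in strain 18. Strain 18 was the highest for miR-99b too, but strain 21, the lowest for let-7e, was second highest for miR-99b. The rho of let-7e was 0.183 with miR-99b (permutation p = 0.469, adjusted p = 0.792) and -0.117 with miR-125a-5p (permutation p = 0.643, adjusted p = 0.867). Between 1.92 (strain 27) and 6.92 (strain 21) reads of miR-99b were counted for each read of let-7e, and between 0.412 (strain 10) and 1.83 (strain 9) reads of miR-125a-5p.
let-7c exceeded miR-99a and let-7a exceeded miR-100 in every library. Reads of miR-99a per read of let-7c had a median of 0.00688. They ran from 0.00326 in strain 10 to 0.166 in strain 28, where let-7c was lowest. Reads of miR-100 per read of let-7a had a median of 0.0191, from 0.0108 in strain 16 to 0.0377 in strain 21. miR-99a with let-7c had a rho of -0.265 (permutation p = 0.286, adjusted p = 0.549), and miR-100 with let-7a one of 0.117 (permutation p = 0.644, adjusted p = 0.907). Since let-7a and let-7c have other genes besides those in the clusters, these levels are not those of 1 locus. The star arm let-7c-1*, which comes from the chromosome 16 hairpin only, had 6 to 29 reads in a library (1.85 ± 0.617 CPM) and was below the level for testing.

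The other arms of the Mir99b and Mir125a hairpins give a second reading of these loci, and those of the Mir125b hairpins are listed without their locus. They are shown because each differs in sequence from its guide and from the other listed arms, with bases 2 to 8 in capitals.
miR-99b-3p: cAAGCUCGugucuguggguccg
miR-125a-3p: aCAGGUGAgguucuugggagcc
miR-125b-1-3p: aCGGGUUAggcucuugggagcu
miR-125b-2-3p: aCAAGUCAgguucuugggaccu
miR-99b*, the 3′ arm of the miR-99b hairpin, was at 28.3 ± 7.55 CPM (SD, n = 18), lowest in strain 11 at 19.2 CPM, with a median of 26.6 CPM, and highest in strains 18 (47.6 CPM) and 21 (40.7 CPM), the highest strains of miR-99b. Its rho with miR-99b was 0.744 (permutation p = 0.00069, adjusted p = 0.0695), the second highest of 280, and r was 0.713 (permutation p = 0.00087; 0.677 without strains 16 and 18). miR-125a-3p was at 17.4 ± 4.35 CPM, lowest in strain 21 at 10.5 CPM, with a median of 15.9 CPM, and highest in strain 20 at 26.8 CPM. Its rho with its guide miR-125a-5p was -0.168 (permutation p = 0.503, adjusted p = 0.826). Reads of miR-125a-5p per read of miR-125a-3p went from 32.4 in strain 10 to 129 in strain 7, a 3.97-fold range, while those of miR-99b per read of miR-99b* had a 2.27-fold range, from 78.2 in strain 16 to 177 in strain 28. miR-125a-3p had between 54 and 329 reads in a library, so its SD from counting was 0.12 log2, against 0.34 log2 over strains. Its level also rose with the library total (rho 0.684, permutation p = 0.00237, adjusted over 281 miRNAs p = 0.0367; 8.54% of the 281 passed), and the part of depth in its rho with the guide was not tested. For the 5 guides rho with the library total lay between -0.226 and 0.117, with an adjusted permutation p of 0.662 or more.

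miR-125b-5p has 2 other arms in the table, miR-125b* and miR-125b-3p, and the table does not say which of the loci each stands for. miR-125b* was the steadiest of all 281 tested miRNAs: it lay at 58.8 CPM in strain 22, a median of 76.7 CPM and 88.6 CPM in strain 9, an SD of 0.15 log2 against 0.05 from counting. Its rho was 0.626 with miR-125b-5p (permutation p = 0.00657, adjusted p = 0.507), 0.763 with miR-100 (permutation p = 0.00043, adjusted p = 0.0602) and 0.348 with miR-99a (permutation p = 0.159, adjusted p = 0.416). By Pearson's r the relation of miR-125b* with miR-100 was 0.831 (permutation p = 5e-05, adjusted p = 0.0098), and it was 0.679 without strains 16 and 22. miR-125b-3p was less abundant and more variable, at 10.2 CPM in strain 25, a median of 23.3 CPM and 53.1 CPM in strain 10 (SD 0.54 log2). Its rho was 0.558 with miR-125b-5p (permutation p = 0.0179, adjusted p = 0.682), 0.360 with miR-100 (adjusted permutation p = 0.616) and -0.205 with miR-99a (adjusted permutation p = 0.635). There were 1.55 (strain 10) to 7.52 (strain 25) reads of miR-125b* for each read of miR-125b-3p.

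**Figure D4:**
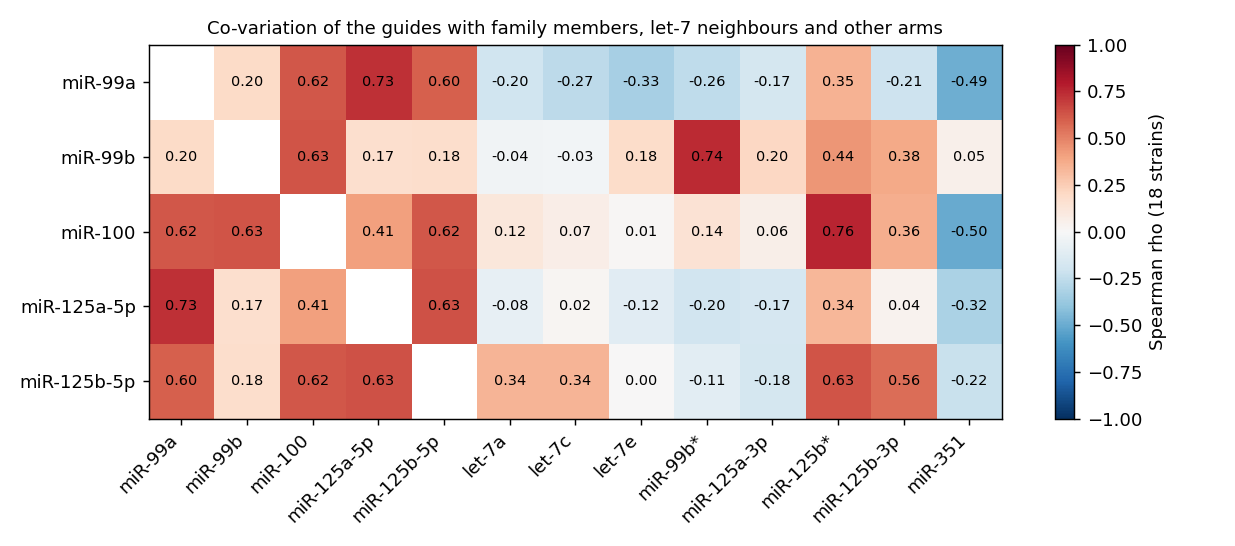
Spearman's rho over 18 strains (colour from -1 to 1, with the value in each cell) of the 5 guides (rows) with each other, the let-7 miRNAs of the clusters, the other arms of the hairpins and miR-351, which shares the miR-125 seed (columns). Values among miR-99a, miR-100, miR-125a-5p and miR-125b-5p lie between 0.41 and 0.73, those with let-7e between -0.33 and 0.18.

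miR-351, the third listed miRNA with the miR-125 seed, is made from the X-linked miR-322/miR-503 cluster. It was at 20.7 ± 5.35 CPM (SD, n = 18), far below the other miRNAs with this seed. Its rho was -0.317 with miR-125a-5p (adjusted permutation p = 0.544) and -0.224 with miR-125b-5p (adjusted permutation p = 0.894). miR-503 of the same cluster, a miRNA linked to cell cycle arrest, was the miRNA with the lowest rho to miR-100, at -0.763 (permutation p = 0.00037, adjusted p = 0.0602; r = -0.699, and -0.637 without strains 16 and 22). With miR-99b its rho was -0.703 (permutation p = 0.00149, adjusted p = 0.0695), where miR-30b was lower still, at -0.719 (permutation p = 0.00121, adjusted p = 0.0695). miR-30b came next to miR-503 for miR-100 as well, at -0.643 (adjusted permutation p = 0.240).

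The miRNAs most like each guide were named by rho. With miR-99a they were miR-186 (rho 0.870, permutation p = 2e-05, adjusted p = 0.0028; r = 0.829, and 0.9001 without strains 16 and 22), miR-106b (0.794, adjusted permutation p = 0.0119), miR-29a* (0.767, adjusted permutation p = 0.0191) and miR-497 (0.765, adjusted permutation p = 0.0191). miR-186 lay at 450.8 CPM in strain 20, a median of 656 CPM and 1167 CPM in strain 9. The opposite order was shown by miR-130b (rho -0.874, permutation p = 1e-05, the smallest that 100000 resamples can give, adjusted p = 0.0028; r = -0.831, and -0.767 without strains 16 and 22). miR-130b was lowest in strain 9 at 47.5 CPM, had a median of 104 CPM and was highest in strain 22 at 176 CPM, the second lowest strain of miR-99a. miR-152, a relative of miR-148a, had a rho of -0.808 with miR-99a (adjusted permutation p = 0.00747). The other miRNAs that passed with a positive rho were miR-186*, miR-34a, miR-125a-5p, miR-20a, miR-15a, miR-200a, miR-425 and miR-297c, and the remaining negative one was miR-127. Those outside the rule for names were listed after their values had been seen. With total scaling the rho of miR-130b was -0.319 and that of miR-152 -0.0217, and neither passed. The call of miR-152 held in 20 of 29 alternatives. It was also lost with median of ratios, with the upper quartile, without strains 10, 13, 14 and 20 (strain 28 kept or left out), and without strain 18, 20, 27 or 28 alone; with single strains left out its rho stayed between -0.831 and -0.672. Without strain 28 only miR-130b still passed (adjusted permutation p = 0.0442).

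miR-125a-5p was most like miR-200a, an epithelial miRNA that represses ZEB1 and ZEB2 (rho 0.777, permutation p = 0.0003, adjusted p = 0.042; r = 0.621, and 0.622 without strains 9 and 10). miR-99a, miR-342-3p (0.717) and miR-34a (0.715) followed, each with an adjusted permutation p of 0.0651. miR-25, of the miR-106b-25 cluster, was the most opposed (rho -0.789, permutation p = 0.00015, adjusted p = 0.042; r = -0.745, and -0.697 without strains 9 and 10). This value is that of miR-25 alone and was not read as one of its cluster. miR-106b of the same cluster was among the miRNAs most like miR-99a, a different guide. miR-25 lay at 477 CPM in strain 7, where miR-125a-5p was second highest, and had a median of 695 CPM. It reached 1128 CPM in strain 10, where miR-125a-5p was lowest. miR-221 had a rho of -0.709 with miR-125a-5p (adjusted permutation p = 0.0651). The call of miR-200a was lost in 17 of 29 alternatives and that of miR-25 in 14, with the sign kept in all of them. With single strains left out, rho stayed between 0.706 and 0.843 for miR-200a and between -0.873 and -0.75 for miR-25, and the adjusted permutation p reached 0.115 for each. Without strain 2, 3, 7, 9, 10, 11, 21 or 25 neither passed; miR-200a was also lost without strain 18, 27 or 28, and miR-25 without strain 23. With total scaling the rho of miR-25 was -0.106.
Among the remaining guides miR-99b was most like miR-28* (rho 0.756), miR-99b*, miR-296-3p (0.719) and miR-181a-1* (0.705), each with an adjusted permutation p of 0.0695. miR-100 was most like miR-125b*, miR-10a (0.705, adjusted permutation p = 0.144), miR-181a-1* (0.684, adjusted permutation p = 0.162) and miR-99b. miR-125b-5p was most like miR-125a-5p, miR-125b*, miR-100 and miR-34a (0.620, adjusted permutation p = 0.507), so its nearest 3 came from the family itself. Its lowest rho were those of miR-374 (-0.531) and miR-300 (-0.501), both with an adjusted permutation p of 0.682.

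**Figure D5:**
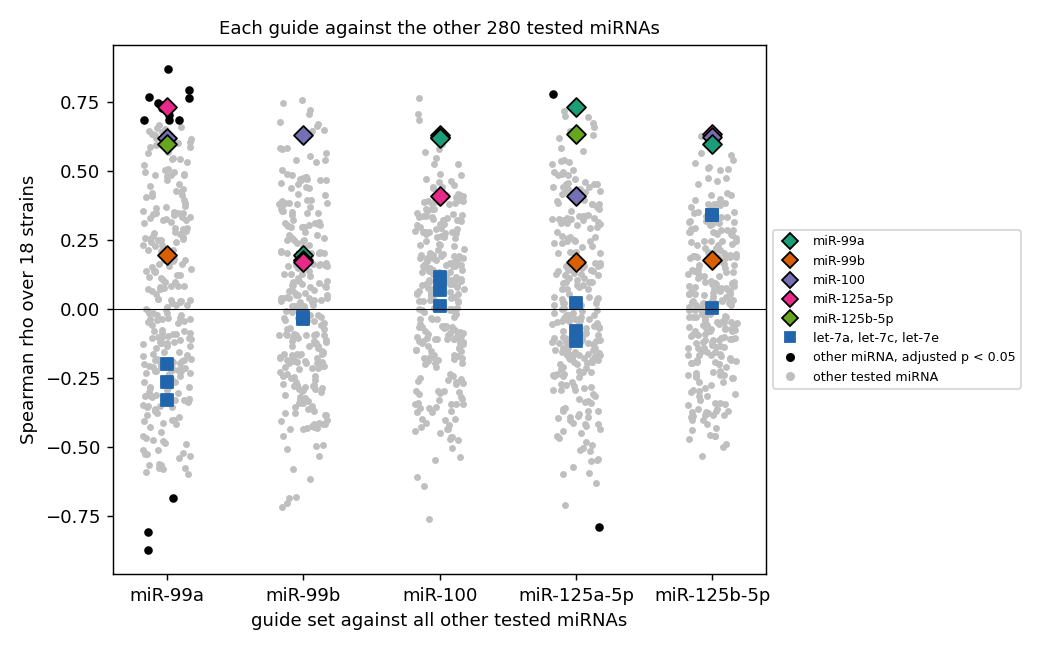
Spearman's rho over 18 strains (y axis) of each guide (x axis) with the other 280 tested miRNAs. Diamonds are the other guides, squares let-7a, let-7c and let-7e, black points other miRNAs with an adjusted permutation p under 0.05 and grey points the rest; 3 of the diamonds of miR-99b lie between 0.17 and 0.20, and no let-7 square passed with any guide.

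Lists of miRNAs of other cell types were read in the same tests. Of 8 miRNAs of luminal epithelium, 1 passed with miR-99a and 1 with miR-125a-5p, in both cases miR-200a, and none with the other guides. Over all 280 tested miRNAs, 5.36% passed with miR-99a and 0.714% with miR-125a-5p. The median rho of that list was 0.22 with miR-99a, 0.14 with miR-99b, 0.18 with miR-100, 0.19 with miR-125a-5p and -0.01 with miR-125b-5p. Over all 280 tested miRNAs the medians were 0.00, 0.03, 0.07, -0.02 and 0.03 in the same order.
No miRNA of the other 9 lists passed with any guide by rho, and by Pearson's r none passed. At an unadjusted permutation p under 0.05 there were 0 to 2 of them per list and guide. Over all 280 tested miRNAs that unadjusted count was 68 with miR-99a, 34 with miR-99b, 22 with miR-100, 39 with miR-125a-5p and 18 with miR-125b-5p. The 5 leukocyte miRNAs, such as miR-142-3p (4994 ± 3782 CPM, SD, n = 18) and miR-142-5p (193.6 ± 132.97 CPM), had median rho of 0.29 with miR-125b-5p and 0.23 with miR-99a, but -0.41 with miR-99b. The 5 of skeletal muscle, such as miR-1 and miR-206 (3139.6 ± 2706 CPM), had negative medians with all 5 guides, from -0.23 (miR-99b and miR-125a-5p) to -0.11 (miR-100). For 4 mesenchymal miRNAs of the miR-199 and miR-214 genes the medians lay between -0.14 (miR-125a-5p) and 0.05 (miR-100), and for 3 of smooth muscle, among them miR-143 (33016 ± 13579 CPM) and miR-145 (162 ± 66.4 CPM), between -0.11 (miR-100) and 0.24 (miR-99a and miR-125a-5p).
The 3 erythroid miRNAs had medians between -0.11 (miR-99b) and 0.31 (miR-99a), both endothelial arms of miR-126 between -0.09 (miR-99b) and 0.23 (miR-100), and miR-203 and miR-205 of basal epithelium between -0.27 (miR-99a) and 0.19 (miR-99b). The liver miRNA miR-122 lay between -0.18 (miR-125a-5p) and 0.18 (miR-100). The 12 let-7 family rows, arms included, had medians of -0.27 with miR-99a, -0.06 with miR-99b, -0.02 with miR-100, -0.09 with miR-125a-5p and 0.15 with miR-125b-5p.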

How the data were processed

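Mature miRNA levels were measured by small RNA sequencing (Illumina Genome Analyzer IIx, per the series' design text) in 18 pooled libraries, 1 per strain. The authors deposited 1 table of log2 values. BWA and mm9 are named without role or version, per the submitters' processing notes, and no source used here names the counter, miRNA annotation or filters. Unlogged, the deposited log2 values are whole multiples of 1 constant in each library, taken as the worth of 1 read, within 0.006 log2 for 100.0% of 3813 values of up to 50 reads. Reads of abundant miRNAs are therefore known to the 2 decimals of the log2 value.

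Identical rows (20 in 8 sets) were counted once, which left 571. Scaling factors came from TMM, trimming 30% of log ratios and 5% of abundances, and levels entered tests as log2(CPM + 1). Each guide was tested against the other 280 rows of at least 10 CPM on average. Intervals are exact binomial (Clopper-Pearson, 95%). A p-value compares a correlation with those found after shuffling 1 of its variables over the libraries. With 1 pool per strain it cannot separate strain from library. The permutation test was tried on simulated data with strong planted relations only, so its power for weaker ones was not tried. Python 3.11.15, numpy 2.4.6, pandas 2.3.3, scipy 1.17.1 and matplotlib 3.10.9 were used. Alternatives were other scalings, filters, pseudocounts, Pearson's r, all rows counted and strains left out.

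The guides, the 10 marker lists and the tests were chosen with earlier results of these data known. Named are the guides, their other arms, the let-7 rows of their clusters, and for each guide the 4 miRNAs with the highest and the 2 with the lowest rho. miR-351 was added for its seed.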

Additional observations from a re-analysis of the deposited data

How the results depend on the processing

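The counts of miRNAs correlated with a guide depended on scaling. With library totals alone, 121 passed with miR-99a, 13 with miR-99b, 39 with miR-100, 83 with miR-125a-5p and 51 with miR-125b-5p, and rho passed for miR-100 with miR-125b-5p (0.686), miR-99a with miR-125b-5p (0.804) and miR-99a with miR-100 (0.794). That scaling shifts the median of the tested miRNAs by -0.57 log2 in strain 14 to 0.74 in strain 28. Median-of-ratios shifts it by -0.10 to 0.14 and upper-quartile scaling by -0.16 to 0.17. Of the 15 miRNAs called with miR-99a, 12 were called with totals, 7 of 7 with median of ratios, and 10 of 11 with the upper quartile. With miR-125a-5p the count was 1 with median of ratios, 0 with the upper quartile, 0 at 1 CPM or more, 4 at 100 CPM or more and 6 with identical rows all counted. Pearson's r gave 1 with miR-99b and 3 with miR-100. Without strains 10, 13, 14 and 20 the count with miR-99a was 8, of which 5 were among the 15. It was then 2 with miR-100, 0 with miR-125a-5p and 1 with miR-125b-5p. Without these and strain 28 the count with miR-99a was 4, of which 2 were among the 15. It was then 2 with miR-100 and 0 with miR-125a-5p. Fewer strains were left in both, and for the other settings the cause was not tested.

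Leaving out 1 strain at a time gave 1 to 28 miRNAs for miR-99a, with 1 without strain 28, 4 without strain 9, 9 without strain 3, 11 or 18, and 28 without strain 16. The range was 0 to 3 for miR-99b (3 without strain 9; 1 without strain 11, 21 or 23) and 0 to 2 for miR-100 (2 without strain 14; 1 without strain 3, 21, 23 or 27). For miR-125b-5p it was 0 to 1 (1 without strain 20), and for miR-125a-5p 0 to 11, with 11 without strain 16, 9 without strain 22, 6 without strain 14 and 4 without strain 20. It was 0 without any of strains 2, 3, 7, 9, 10, 11, 21 or 25 and 1 without strain 18, 23 or 28. The rho of miR-99b with miR-125a-5p stayed between 0.0441 and 0.294, of miR-100 with miR-125b-5p between 0.561 and 0.777, of miR-99a with miR-125b-5p between 0.478 and 0.650, and of miR-99a with miR-100 between 0.520 and 0.696 (it passed without strain 10, adjusted permutation p = 0.0478). The sign of miR-99b with let-7e turned without strain 16 (-0.049), without strain 18 (-0.0882, against a highest value of 0.363 without strain 21) and without strains 10, 13, 14 and 20 (-0.0462 with the remaining libraries scaled anew, 0.0022 with the scaling of all 18 kept). Mean levels and SDs of the guides moved by less than the SD over strains and less than 1.5 times in every setting run. No paired analysis was possible because each strain is 1 pool with no replicate numbers.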
